A study of Homo sapiens with 6 samples.

Results

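The genes described here are the heterogeneous nuclear ribonucleoproteins (hnRNPs), the serine/arginine-rich (SR) splicing factors and the subunits of splicing factor SF3, in MDA-MB-231 cells with and without PELP1 knockdown (KD). They were chosen by symbol, as every listed gene whose name begins with HNRNP, or with SRSF and a digit, or reads SF3A or SF3B and a number. This gave 45 of the 23228 gene symbols in the count tables, of which 24 were hnRNP genes, 12 were SR genes and 9 were SF3 genes. Among the hnRNP genes, HNRNPA1P10, HNRNPA3P1 and HNRNPKP3 are annotated as pseudogenes in GENCODE. MDA-MB-231 cells derive from a human triple negative breast cancer. All cells carried a stably integrated lentiviral shRNA and had been selected with puromycin. The control cells expressed a non-targeted shRNA and the PELP1-KD cells expressed a PELP1 shRNA, with 3 replicates in each group. The paper's methods give 1 PELP1 shRNA product, so effects of its sequence other than on PELP1 cannot be told apart from the loss of PELP1. The labels do not say that the replicates came from separate cultures, and p-values then measure the spread between these samples, which may be technical.

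RNA was sequenced as stranded mRNA libraries, and the counts on genes ranged from 17304864 to 23132102 per replicate. A gene was tested when it passed the filter of edgeR on low counts, which 12796 genes did. Expression is given as CPM, counts normalised to library size after scaling by TMM, a method that assumes that most genes do not change. PELP1 itself had 56.1 to 60.2 CPM in the control replicates and 28.6 to 30.3 CPM in the PELP1-KD replicates, and its log2 fold change (log2FC) was -0.97. VIM and CD44, which mesenchymal breast cancer cells express, were at 827 CPM or more in every replicate, whereas ESR1 and PGR were at 0.118 CPM or below. ERBB2, the receptor gene that completes the triple negative definition, was at 109 to 128 CPM, and the epithelial marker EPCAM was at 8.62 to 11.2 CPM. In PELP1-KD cells CD44 and VIM were themselves downregulated, at a log2FC of -0.55 and -0.21. PTPRC, a leukocyte marker, had no count in any replicate. COL1A1, a fibroblast marker, had 5.13 to 7.08 CPM in the controls and 16.9 to 19.8 CPM in PELP1-KD cells. Its part in the results below was not tested.

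Pre-mRNA splicing removes introns in the spliceosome, a machine built anew on each intron from small nuclear ribonucleoproteins (snRNPs) and many proteins. SR proteins bind exonic enhancers through RNA recognition motifs, and their arginine/serine-rich tails recruit the spliceosome. The hnRNPs coat nascent RNA and often act against SR proteins at the same exons. SF3A and SF3B are the protein complexes of the U2 snRNP that hold it on the branch site of the intron. Many genes of these families also control their own mRNA through exons that send the transcript to decay, which counts per gene cannot show.

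After PELP1-KD, most of these genes were modestly downregulated. Of the 45 genes, 39 passed the filter and were tested. At an adjusted p-value below 0.05 (edgeR's quasi-likelihood test, adjusted over all tested genes), 28 of them were downregulated and 1, SRSF9, was upregulated. Over all tested genes the same rule called 24.2% downregulated and 22.7% upregulated. The median log2FC was -0.19 for the 39 genes and 0.0014 for all tested genes. The changes were small, from a log2FC of -0.35 in HNRNPA2B1 to 0.12 in SRSF9. None of the 39 genes had a log2FC beyond 1 together with an adjusted p-value below 0.05, the thresholds stated for differential expression in the study's methods, which 3.24% of all tested genes passed, 1.34% of them downward and 1.90% upward. In a test against a fold change of 1.2 in place of 1, only HNRNPA2B1 was called, where 6.60% of all tested genes were called downregulated and 6.55% upregulated. Without a threshold, 35 of the 39 genes and 49.7% of all tested genes had a log2FC below 0.

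By family, 14 of 19 tested hnRNP genes, 9 of 11 SR genes and 5 of 9 SF3 genes were downregulated. The median log2FC was -0.20 for the hnRNP genes, -0.21 for the SR genes and -0.10 for the SF3 genes. The replicates of both groups did not overlap in 29 genes that were lower in PELP1-KD cells and in 1 that was higher, where 28.0% and 27.0% of all tested genes did so, 55.0% in either direction. Because small changes are more easily called in well expressed genes, the tested genes with a mean of at least 50 CPM were also taken as a background, a choice made after the data were seen. Of these 5143 genes, 35.5% were downregulated and 21.2% upregulated, with a median log2FC of -0.04. Among them were 35 of the 39 splicing factor genes, of which 26 were downregulated and 1 upregulated, with a median log2FC of -0.18.

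**Figure D1:**
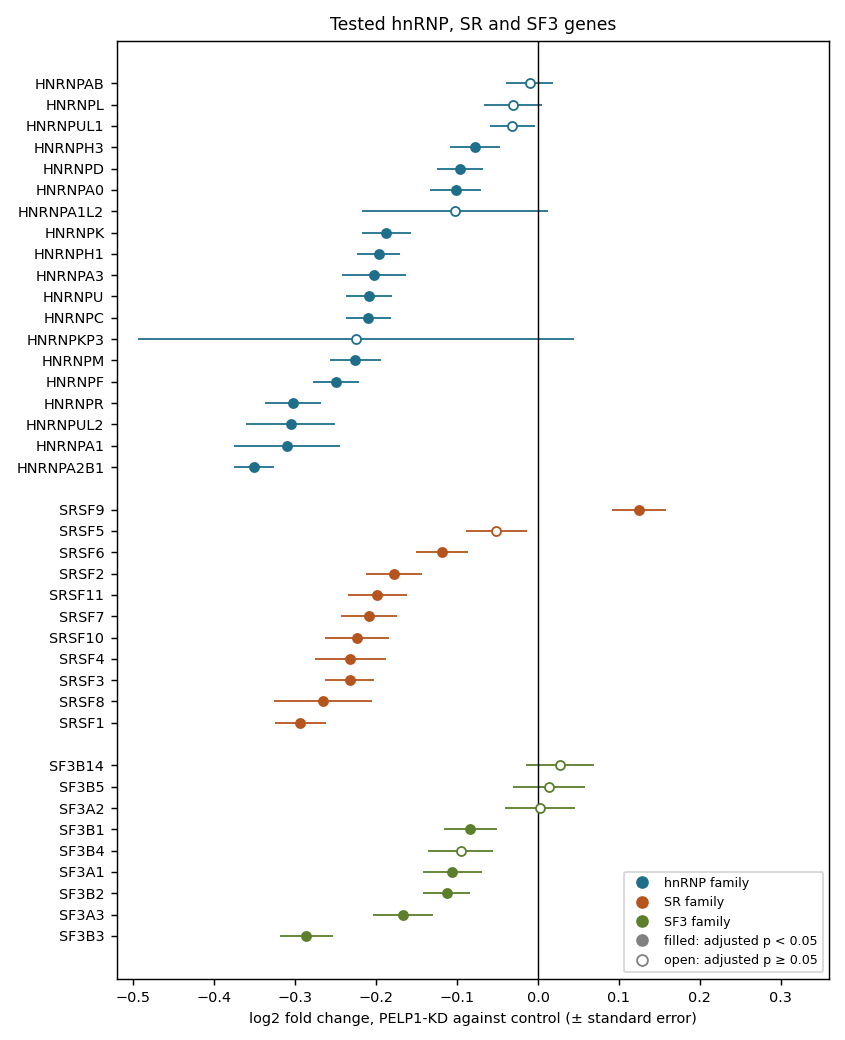
Log2 fold change of the 39 tested hnRNP, SR and SF3 genes on the horizontal axis, PELP1-KD against control, with its standard error, ordered within each family. Filled points passed an adjusted p-value of 0.05: 28 lie left of 0 and SRSF9 alone lies right of it, while 10 open points did not pass.

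The same shift was seen in the raw totals. Together the 45 genes took 1.36%, 1.36% and 1.36% of the counts on genes in the 3 control replicates, against 1.25%, 1.23% and 1.25% after PELP1-KD. Every PELP1-KD replicate was thus below every control replicate without any scaling other than the library total. The hnRNP genes took 0.877% ± 0.0021 (SD, n = 3) of the control counts and 0.790% ± 0.008 (SD, n = 3) of the PELP1-KD counts. The SR genes took 0.299% ± 0.0039 and 0.272% ± 0.0051, and the SF3 genes 0.186% ± 0.0015 and 0.179% ± 0.0012 (SD, n = 3 each). HNRNPA2B1 alone made up 22.2% to 22.7% of the hnRNP counts in control cells and 20.0% to 20.6% in PELP1-KD cells. Without HNRNPA2B1, the hnRNP share was 0.680% ± 0.0037 in control and 0.631% ± 0.0047 in PELP1-KD cells, and the groups still did not overlap.

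**Figure D2:**
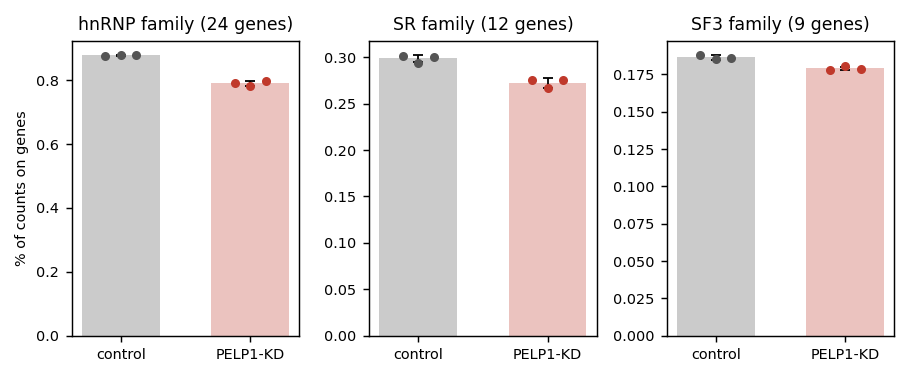
Share of all counts on genes taken by the hnRNP, SR and SF3 genes, in percent, with a point per replicate, bars for the mean and whiskers for the SD (n = 3). In each family the 3 PELP1-KD points lie below the 3 control points, with means of 0.790% against 0.877% for the hnRNP genes.

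HNRNPA2B1 encodes the hnRNP A2 and B1 proteins, which bind nascent RNA and take part in splicing, mRNA transport and microRNA sorting. It had 2031, 2006 and 1974 CPM in control replicates 1, 2 and 3, against 1562, 1538 and 1614 CPM after PELP1-KD. The PELP1-KD replicates lay well below the controls, and the gene fell by 21.6% (log2FC -0.35, standard error 0.025, adjusted p-value 3.6e-10 from edgeR). This was the largest fall among the 39 genes. The exons of HNRNPA2B1 overlap those of CBX3 on the opposite strand over 3.97% of their length. CBX3 was also downregulated, with a log2FC of -0.30 and an adjusted p-value of 4.53e-05 in edgeR. The part of this overlap in the counts was not tested. HNRNPA1, the relative best known for repressing exons, had 56.6, 49.2 and 54.0 CPM in the controls and 46.6, 39.0 and 43.0 CPM after PELP1-KD, a log2FC of -0.31 (adjusted p-value 5.61e-04 from edgeR). HNRNPA3 fell by 13.1% and HNRNPA0 fell by 6.80%, both with groups that did not overlap.

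HNRNPF and HNRNPH1 encode closely related proteins that bind runs of guanines near exons. HNRNPF had 486, 492 and 489 CPM in the controls, against 411, 416 and 406 CPM after PELP1-KD. The spread within either group was small beside the distance between them, and it fell by 15.9% (log2FC -0.25, standard error 0.028, adjusted p-value 3.25e-07 from edgeR). HNRNPH1 fell by 12.8% and HNRNPH3, a shorter member of the same subfamily, fell by 5.22%. The call of HNRNPH3 (adjusted p-value 0.0449 from edgeR) had the highest adjusted p-value of the 28.

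HNRNPR encodes a protein that binds RNA in the nucleus and in neuronal processes. It had 384, 366 and 351 CPM in control cells and 301, 291 and 300 CPM in PELP1-KD cells. The groups did not overlap, and the gene fell by 18.9% (log2FC -0.30, standard error 0.034, adjusted p-value 3.95e-07 from edgeR). HNRNPU, a nuclear scaffold protein that also binds chromatin, had 894, 900 and 903 CPM in the controls and 796, 748 and 789 CPM after PELP1-KD. The controls were tightly grouped and the fall was 13.5% (log2FC -0.21, standard error 0.028, adjusted p-value 3.48e-06 from edgeR). HNRNPC, which packages nascent transcripts and binds runs of uridines, had 501, 488 and 500 CPM in control cells and 431, 433 and 425 CPM in PELP1-KD cells. It too fell by 13.5% (log2FC -0.21, standard error 0.028, adjusted p-value 3.53e-06 from edgeR), with groups that did not overlap. The exons of HNRNPU overlap those of COX20, listed as FAM36A, on the opposite strand over 15.6% of their length. FAM36A had a log2FC of -0.04 and was not called.

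The other downregulated hnRNP genes were HNRNPM, HNRNPK, HNRNPUL2 and HNRNPD. Their log2FC lay between -0.31 in HNRNPUL2 and -0.10 in HNRNPD, and none had overlapping groups. HNRNPK, a KH-domain protein that binds runs of cytosines, had 594 CPM ± 22.5 in control cells and 522 CPM ± 6.80 in PELP1-KD cells (SD, n = 3 each). HNRNPUL2 went from 66.1 CPM ± 4.61 to 53.4 CPM ± 2.09 (SD, n = 3 each), whereas its paralog HNRNPUL1 had 647 CPM ± 12.4 and 633 CPM ± 9.1 with overlapping groups. The ratio of HNRNPUL2 to HNRNPUL1 counts, which needs no library scaling, was 0.113, 0.095 and 0.0993 in the controls and 0.0891, 0.0818 and 0.0823 in PELP1-KD cells. The replicates of the groups did not overlap in this ratio, a comparison picked after the values were seen and therefore given without a test.

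Apart from HNRNPUL1, the tested hnRNP genes that did not pass were HNRNPAB, HNRNPL, HNRNPA1L2 and HNRNPKP3. HNRNPAB, a relative of HNRNPD, had 466 CPM ± 12.3 in control and 462 CPM ± 3.63 in PELP1-KD cells (SD, n = 3 each), a log2FC of -0.01 with a standard error of 0.029. HNRNPL, which binds CA repeats, had a log2FC of -0.03 with a standard error of 0.036. HNRNPA1L2 and HNRNPKP3 were low, at 8.69 CPM or below in every replicate, and their standard errors of 0.11 and 0.27 leave wide room for a change.

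**Figure D3:**
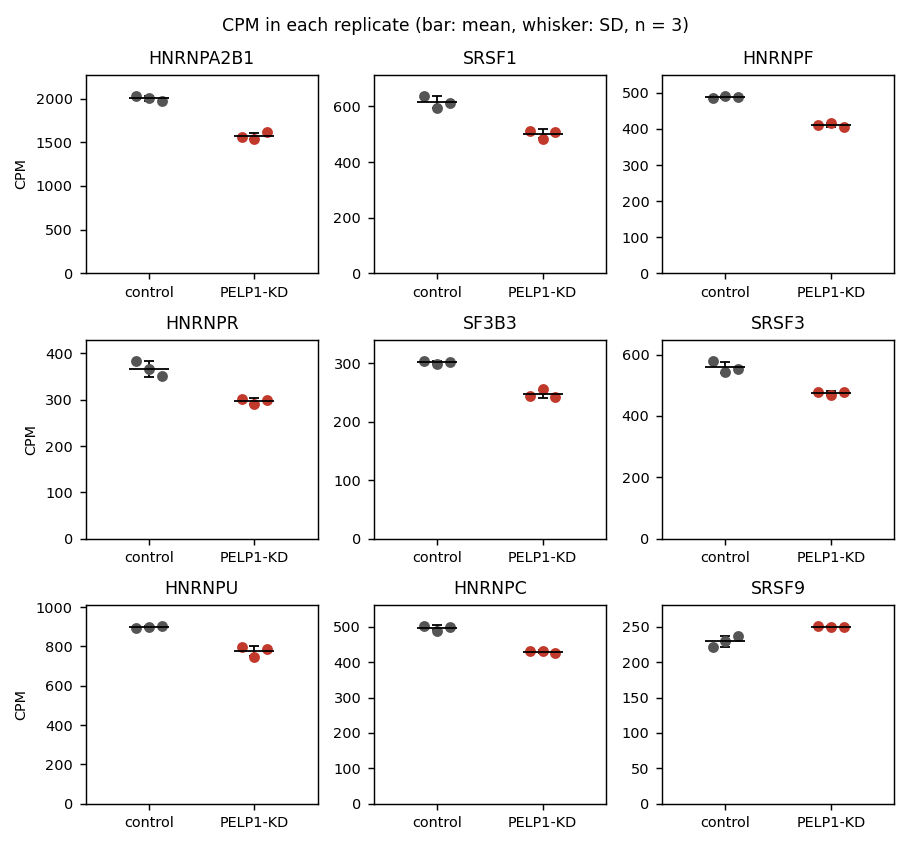
CPM (vertical axes, from 0) in each control and PELP1-KD replicate for 8 downregulated genes, those of lowest p-value, and for SRSF9, the only upregulated gene, with the mean as a bar and the SD as whiskers (n = 3). In HNRNPA2B1 the PELP1-KD points lie at 1538 to 1614 CPM, below the controls at 1974 to 2031 CPM, and in SRSF9 the order is the reverse.

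Among the SR genes, SRSF1 encodes the founding SR protein, which acts in constitutive and alternative splicing and is a known proto-oncogene. It had 638, 595 and 614 CPM in the controls, against 513, 485 and 509 CPM after PELP1-KD. The lowest control was above the highest PELP1-KD replicate, and SRSF1 fell by 18.4% (log2FC -0.29, standard error 0.032, adjusted p-value 1.96e-07 from edgeR). SRSF3, the smallest SR protein, which also couples splicing to mRNA export, had 579, 542 and 552 CPM in the controls and 477, 467 and 479 CPM after PELP1-KD. Its groups did not overlap either, and it fell by 14.9% (log2FC -0.23, standard error 0.03, adjusted p-value 2.19e-06 from edgeR).

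SRSF9 was the exception among the SR genes. It encodes a short SR protein that is among those most like SRSF1. It had 222, 230 and 236 CPM in control cells and 251, 249 and 250 CPM in PELP1-KD cells, so that each PELP1-KD replicate was above each control. It rose, at a log2FC of 0.12 with a standard error of 0.033 and an adjusted p-value of 0.00436 in edgeR. The ratio of SRSF9 to SRSF1 counts was 0.347, 0.387 and 0.385 in the controls and 0.489, 0.514 and 0.491 in PELP1-KD cells. The groups did not overlap in this ratio, which does not depend on the scaling of libraries and, like the one above, was picked after the values were seen. The exons of SRSF9 overlap those of GATC on the opposite strand over 46.2% of their length in the GENCODE annotation. Whether the authors counted by strand is not given in the sources used here. GATC was not called, with a log2FC of -0.05 and an adjusted p-value of 0.45 from edgeR.

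The other 7 downregulated SR genes were SRSF2, SRSF4, SRSF6, SRSF7, SRSF8, SRSF10 and SRSF11, with groups that did not overlap in any of them. Their log2FC lay between -0.27 in SRSF8 and -0.12 in SRSF6. SRSF7, the closest relative of SRSF3, went from 241 CPM ± 3.41 to 208 CPM ± 6.74, and SRSF10, which is known to repress splicing when dephosphorylated, from 191 CPM ± 10.4 to 164 CPM ± 1.55 (SD, n = 3 each). SRSF2 went from 422 CPM ± 17 to 373 CPM ± 12.7 (SD, n = 3 each), and its exons overlap those of MFSD11 on the other strand over 36.7% of their length. MFSD11 was upregulated, with a log2FC of 0.24 and an adjusted p-value of 0.0403 in edgeR. SRSF5 was the only tested SR gene that did not pass, with 166 CPM ± 2.54 and 160 CPM ± 6.39 (SD, n = 3 each) and a log2FC of -0.05 (standard error 0.038).

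The mRNAs of the SF3 subunits did not move as a block. SF3B3, a large scaffold subunit of SF3B, had 304, 299 and 302 CPM in the controls, against 244, 256 and 241 CPM after PELP1-KD. The groups were clearly apart, and the gene fell by 18.0% (log2FC -0.29, standard error 0.032, adjusted p-value 4.03e-07 from edgeR). SF3A3 fell by 10.9%, SF3B2 fell by 7.53% and SF3A1 fell by 7.07%. SF3B1, the subunit that encloses the branch site adenosine and is often mutated in myeloid cancers, had a log2FC of -0.08 and an adjusted p-value of 0.0427 (edgeR). Without control replicate 1 its log2FC was -0.04 and its adjusted p-value 0.189.

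The 4 other SF3 genes were not called. SF3B4 had groups that did not overlap, at 114 CPM ± 0.668 and 107 CPM ± 2.91 (SD, n = 3 each), but an adjusted p-value of 0.0536. SF3A2, SF3B5 and SF3B14, the last now named SF3B6, had a log2FC of 0.0029, 0.01 and 0.03 with standard errors of 0.043, 0.044 and 0.042. SF3B14, which touches the branch site, had 169, 165 and 176 CPM in the controls and 178, 161 and 181 CPM in PELP1-KD cells, and the groups overlapped. The ratio of SF3B3 to SF3B14 counts was 1.8, 1.81 and 1.71 in control cells and 1.38, 1.59 and 1.34 in PELP1-KD cells. The mRNA counts of these 2 genes, whose products share a complex, thus shifted relative to each other within the libraries. The pair was picked after the values were seen, and protein was not analysed here.

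The promoters of the 3 families were compared for letters that known factors bind. RefSeq promoters on GRCh38.p14, from 250 bases before to 50 bases after the annotated start, were found for 39 of the 45 genes, and not for HNRNPA1, HNRNPA1P10, HNRNPA3P1, HNRNPKP3, SF3B3 and SRSF2. CCGGAAG, the core of sites for ETS transcription factors, was searched on both strands. It stood in 6 of 8 promoters of tested SF3 genes, 2 of 10 of tested SR genes and 1 of 17 of tested hnRNP genes. It stood in 10.3% of all 35116 promoters and in 18.7% of those of tested genes that matched by symbol. The 6 SF3 matches closest to the annotated start are shown because they are what these promoters share, with the match in capitals and CTTCCGG as its reverse complement.
SF3A1: ggggacggtcCCGGAAGtgcgccagtc
SF3A2: ctcatttgccCCGGAAGtgctttcttt
SF3A3: gcaggagttgCTTCCGGccgtgttggt
SF3B2: ctggccccagCTTCCGGgttggtcgcg
SF3B4: cgtcttcgccCCGGAAGtggaagtcgt
SF3B14: gctgtaacagCTTCCGGcgggtcctgg
These windows lie on the plus strand at chr19:2236805-2236831 for SF3A2 and chr11:66052340-66052366 for SF3B2. They lie on the minus strand at chr22:30356927-30356953 for SF3A1, chr1:37989998-37990024 for SF3A3, chr1:149927813-149927839 for SF3B4 and chr2:24076329-24076355 for SF3B14. The 6 genes include 3 that were downregulated (SF3A1, SF3A3 and SF3B2) and 3 that were not called, so the match did not divide the SF3 genes by their change. Among all families, it stood in 5 of 25 promoters of downregulated genes and 4 of 10 of the other tested genes.

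CACGTG, the E-box that Myc and related factors bind, was searched because the study is concerned with c-Myc. It reads the same on both strands. MYC itself had 203 to 210 CPM in the controls and 216 to 229 CPM in PELP1-KD cells, and was called upregulated (log2FC 0.09, adjusted p-value 0.0376 from edgeR). The paper reports less c-Myc after PELP1-KD by western blotting of cells starved of serum and then stimulated. It also reports lower c-Myc target gene sets in its RNA-seq. The MYC counts are of RNA and do not measure that protein. The E-box stood in 4 of 25 promoters of downregulated genes and in 0 of 10 of the other tested genes, against 9.55% of the promoters of tested genes and 7.26% of all promoters. No SR gene held it. The 4 downregulated genes with the E-box are shown with it in capitals.
HNRNPA3: gaaaacgcgtCACGTGacgactggcc
HNRNPD: gctctcgcgtCACGTGaccgggacgc
HNRNPM: tgcgtcgggtCACGTGggcgcgcagg
SF3B1: gcagttctgtCACGTGtcacccgacg
These windows lie at chr2:177212713-177212738 and chr19:8444923-8444948 on the plus strand for HNRNPA3 and HNRNPM, and at chr4:82374003-82374028 and chr2:197435121-197435146 on the minus strand for HNRNPD and SF3B1. Their log2FC was -0.20, -0.10, -0.23 and -0.08 for HNRNPA3, HNRNPD, HNRNPM and SF3B1, within the range of the genes without it. The untested HNRNPH2 also held the E-box. The site of NRF1, searched as 1 exact word on both strands, was in 0 of the 39 promoters, in 2.14% of the promoters of tested genes and in 1.24% of all promoters. A match of letters is a description and not evidence of binding.

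Levels were compared between genes as RPKM, counts normalised to library size and to length, with the exon length of each gene taken from GENCODE release 29 on GRCh38. Among the hnRNP genes, HNRNPAB and HNRNPA2B1 were highest in control cells, with 217 RPKM ± 5.72 and 216 RPKM ± 3.09 (SD, n = 3 each), which did not differ beyond their spread, followed by HNRNPF with 150 RPKM ± 0.938. In PELP1-KD cells HNRNPAB had 216 RPKM ± 1.69 and HNRNPA2B1 had 170 RPKM ± 4.16, no longer within their spread. SRSF1, SRSF2 and SRSF3 led the SR genes, with 184 RPKM ± 6.45, 140 RPKM ± 5.63 and 78.4 RPKM ± 2.64 in control cells. SF3B5 and SF3B14, with 151 RPKM ± 4.66 and 142 RPKM ± 4.45, led the SF3 genes, followed by SF3B4 with 50.7 RPKM ± 0.298. The order depended on the length used. In place of all exons, the length of the principal transcript was also used, the longest where several were so annotated. HNRNPA2B1 was then first at 573 RPKM and HNRNPAB, behind HNRNPC, at 259 RPKM. SRSF9 was second among the SR genes at 191 RPKM, and SF3B14 was above SF3B5 at 221 RPKM against 151 RPKM.

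Several of these genes have near-identical copies elsewhere, and the counts leave out reads that align in more than a single place. To see how far this reached, the principal transcript of each gene was cut into windows of 50 bases, the read length. Each window was looked up in the transcripts of all other GENCODE genes. Where several transcripts were annotated as principal, the longest was taken. Of the windows of HNRNPA1, 40.1% had an exact copy in a gene elsewhere, and the copies lay in 57 genes, 53 of which are annotated as pseudogenes. The share was 55.2% for HNRNPA1L2, 49.9% for HNRNPA3, 27.6% for HNRNPC, 15.8% for HNRNPL, 13.3% for HNRNPK, 10.5% for SF3B4 and 10.1% for SRSF10. The levels of these 8 genes, the tested ones with a share of at least 10%, are therefore uncertain, whether they were called or not. HNRNPA2B1, HNRNPF, SRSF1, SRSF7 and SRSF9 had no such window. Windows shared only with a gene that overlaps at the same locus were left out of these shares. They made up 90.0% of the windows of SRSF1, 38.9% of those of SRSF9 and 2.64% of those of HNRNPA2B1. The GENCODE genes that overlap SRSF1 are not in the count tables under their symbols, whereas GATC and CBX3 are. Of the 23 tested genes with under 1% of windows shared, 17 were downregulated and 1 was upregulated, with a median log2FC of -0.20. Of the 16 others 11 were downregulated, with a median log2FC of -0.18. Over all tested genes, 24.2% were downregulated and 22.7% upregulated. Only exact copies were sought, so near copies were missed, and the part of copies in the changes was not tested.

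The 6 genes that were not tested were HNRNPA1P10, HNRNPA3P1, HNRNPCL1, HNRNPH2, HNRNPUL2-BSCL2 and SRSF12. HNRNPA1P10, HNRNPCL1 and the read-through gene HNRNPUL2-BSCL2 had no count in any replicate, and SRSF12 had 1 count in PELP1-KD replicate 2 and 0 in the others. A total of 3 counts, taken as an approximate upper limit for a count of 0, corresponds to between 0.127 and 0.177 CPM per replicate, for counting error only. HNRNPA3P1 had 4 to 8 counts. HNRNPH2 encodes a protein nearly identical to that of HNRNPH1, yet had 1, 1 and 0 counts in the controls and 0, 1 and 2 in PELP1-KD cells. Only 0.552% of its windows had a copy in a gene elsewhere. The read-through gene RPL36A-HNRNPH2 is also listed and had 0 counts throughout. In the GENCODE annotation it overlaps only 16.3% of the exon bases of HNRNPH2. Reads that fall on more than 1 listed gene were placed on none. The part of this rule in the counts of HNRNPH2, and in those of HNRNPUL2, which shares 44.1% of its exon bases with HNRNPUL2-BSCL2, was not tested.

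Beyond these families, 7 lists of other splicing genes were written from general knowledge, with 133 genes in all, of which 119 were tested. Of these, 64 were downregulated and 11 were upregulated. All tested genes had 24.2% downregulated and 22.7% upregulated, and those with a mean of at least 50 CPM had 35.5% and 21.2%. The lists differed in their counts. In the list of hnRNP genes that carry other symbols, 11 of 14 were downregulated and 2 upregulated, with a median log2FC of -0.23. The lowest p-values were those of SYNCRIP, known as hnRNP Q, at a log2FC of -0.34, and HNRNPDL, listed as HNRPDL, at -0.30. PCBP4 and RALY were upregulated, at 0.23 and 0.11. Among SR-related proteins, 15 of 22 were downregulated and 0 upregulated. BCLAF1 at -0.47 and PNN at -0.27 had the lowest p-values in that list.

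In the list of other alternative splicing regulators, 21 of 27 were downregulated and 1 upregulated, with a median log2FC of -0.24. KHSRP, a KH-domain protein that also promotes mRNA decay, went from a mean of 318 CPM to 176 CPM (log2FC -0.85, adjusted p-value 8.8e-14 from edgeR). KHDRBS3 had a log2FC of -1.20 from 11.5 CPM in control cells. FUBP1, a paralog of KHSRP, moved the other way, from 88.9 CPM to 136 CPM (log2FC 0.62, adjusted p-value 1.19e-09 from edgeR). Among SR protein kinases and import receptors, 5 of 11 were downregulated and 3 upregulated. TNPO1, an import receptor of several hnRNPs, and PRPF4B, a kinase of the spliceosome, were downregulated at -0.29 and -0.25, and the SR protein kinase SRPK1 and CLK3 were upregulated at 0.10 and 0.21.

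The mRNAs of constitutive snRNP proteins moved less. Of 16 tested Sm, LSm and U1 snRNP genes, 3 were downregulated and 4 upregulated, with a median log2FC of -0.00034. They included SNRPB at 0.11, LSM4 at 0.15, SNRPD1 at -0.13 and LSM5 at -0.15. Of 13 genes for the U2 snRNP and branch site recognition outside SF3, 4 were downregulated, and SNRPA1 was upregulated at 0.22. Among those 4, DDX46 at -0.20 and DHX15 at -0.17 had the lowest p-values. Of 16 genes for the tri-snRNP, 5 were downregulated and 0 upregulated, led by SNRNP27 at -0.44 and PRPF6 at -0.18. With libraries scaled by their totals alone, the Sm, LSm and U1 snRNP list had 0 downregulated and 5 upregulated genes, the tri-snRNP list 2 and 3, and the list of kinases and import receptors 3 and 4. Under that scaling 18.9% of all tested genes were downregulated and 29.8% upregulated. With TMM these shares were 24.2% and 22.7%, or 35.5% and 21.2% of genes with a mean of at least 50 CPM. The differences between lists were not tested.

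**Figure D4:**
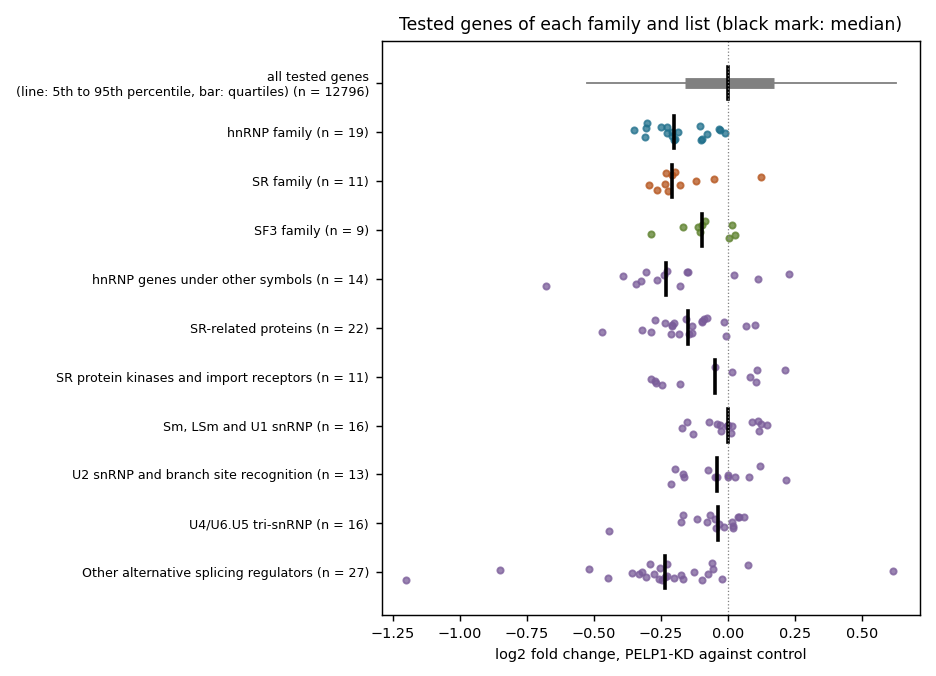
Log2 fold change (horizontal axis, PELP1-KD against control) of the tested genes of the 3 families and of the 7 lists of other splicing genes, with a point per gene, a black mark at the median, and a grey bar and line for the quartiles and the 5th to 95th percentile of all 12796 tested genes. The medians lie at -0.20 for hnRNP and -0.21 for SR genes and near 0 for the Sm, LSm and U1 snRNP genes.

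The size of the fall depended on how the libraries were scaled. When they were scaled by their totals alone, the median of all tested genes moved up to 0.05, 21 of the 39 genes were downregulated and 1 was upregulated, beside 18.9% and 29.8% of all tested genes. Of the SF3 genes, 2 in place of 5 were downregulated. HNRNPA0, HNRNPD, HNRNPH3, SF3A1, SF3B1, SF3B2 and SRSF6 were then no longer called, with a log2FC between -0.07 and -0.03.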

How the data were processed

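The authors deposited raw counts of reads per gene symbol for each replicate. The labels name TopHat2 and HTSeq among the submitters' tools and hg19 as the build. Versions and the strand setting are not given in the sources used here. Rows that name no gene were left out, among them reads with several alignments (32.5% to 32.9% of each replicate's total). The study's methods state DESeq2, which served as an alternative here. In R 4.3.3, genes passing filterByExpr (minimum count 10) were scaled by TMM and tested with glmQLFTest of edgeR 4.0.16 on the 2 groups. Standard errors were obtained by dividing the log2FC by the root of the F statistic. DESeq2 1.42.0 and limma 3.58.1 (voom), RLE, upper-quartile and library-total scaling, other filters, the replicate block, a test against a fold change of 1.2 and leaving out each replicate were the alternatives. The test function was tested on simulated data. Exon lengths came from GENCODE release 29 on GRCh38 and were used for RPKM and for the shares of overlapping exons. The counts rest on hg19, so these lengths may differ from those behind the counts. Promoters came from RefSeq. The genes and lists were chosen with earlier results of these data known. The genes given in every replicate are the 8 with the lowest p-values in each direction among those called with groups that did not overlap, with the other genes of a subfamily added after their values were seen. In each list up to 2 called genes per direction, by lowest p-value, are named. Proteomics and blots were not analysed here.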

Additional observations from a re-analysis of the deposited data

How the results depend on the processing

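Of the 28 downregulated genes, 24 were called with each replicate left out in turn, and 21 were called under all 14 alternatives other than the test against a fold change of 1.2. HNRNPA0 was not called (edgeR, adjusted p-values of 0.0531 to 0.076) without control replicate 2 or 3 or PELP1-KD replicate 1, SF3A1 (0.0634 to 0.113) without control replicate 2 or PELP1-KD replicate 1 or 3, SF3B1 (0.093 to 0.189) without control replicate 1 or any PELP1-KD replicate, and HNRNPH3 (0.0584 to 0.139) without any replicate other than control replicate 1. The log2FC of the 28 genes kept its sign in all of these. With each replicate left out, 24 to 27 genes were downregulated and 1 was upregulated, beside 21.2% to 23.7% and 19.1% to 21.9% of all tested genes. The log2FC of PELP1 in these fits was between -0.99 and -0.94. The median log2FC then ranged from -0.21 to -0.17 for the hnRNP, from -0.22 to -0.18 for the SR and from -0.11 to -0.082 for the SF3 genes. DESeq2 called 26 of the 28 genes, without HNRNPH3 (adjusted p-value 0.0782) and SF3B1 (0.0762), beside 21.1% of all tested genes downregulated and 18.7% upregulated. With library totals alone, the hnRNP, SR and SF3 medians were -0.15, -0.16 and -0.046, and 21 genes of the 7 lists were upregulated instead of 11. With upper-quartile scaling, the medians were -0.16, -0.17 and -0.058. The test against a fold change of 1.2 left 1 downregulated and 0 upregulated genes of the 39, and 8 and 1 of the lists, since it asks for a larger change. Replicate numbers are shared by the groups, and the labels do not say whether they pair the samples. The deviations of same-numbered replicates correlated at 0.0388, 0.0653 and -0.0784, which cannot decide this with 3 replicates per group. A fit with a replicate block called 29 of the 39 genes downward, SF3B4 being added, and 1 upward, beside 26.1% and 24.5% of all tested genes. In that fit the log2FC of PELP1 was -0.97, and the counts in the lists were 65 and 12.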
